A study of Mus musculus with 12 samples.

Results

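The UDP-glucuronosyltransferases and the cytosolic sulfotransferases were followed in the livers of 12 female mice. They were taken as the rows of both deposited tables whose gene symbol is Ugt1, Ugt2 or Ugt3, or Sult1 to Sult6, followed by a letter, a number and at most 1 further letter, which gave 42 of 41743 genes, 21 Ugt genes and 21 Sult genes. There were 4 groups of 3 mice aged 3 to 4 months. YAP1 KO mice carried Foxa3-Cre, which is active in the foregut endoderm and so in the precursors of both hepatocytes and bile duct cells, with floxed copies of *Yap1* on both chromosomes and a ROSA-stop-EYFP reporter, and they were compared with WT (C57BL/6) littermates. YKTH mice (YAP1 KO TAZ Heterozygote) also carried Foxa3-Cre with floxed *Yap1* on both chromosomes, and lacked 1 copy of *Wwtr1*, the gene of TAZ. They came from another line of floxed mice, of FVB background, for which the study names no reporter. YKTH mice were compared with WT (mixed) littermates on a mixed C57BL/6-FVB background. RNA came from whole liver, so fewer cells of a type and less RNA per cell cannot be told apart.

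Both enzyme families make small fat-soluble molecules soluble in water so that they can leave the body in bile or urine. UDP-glucuronosyltransferases sit in the endoplasmic reticulum and join glucuronic acid from UDP-glucuronic acid to bilirubin, steroids, bile acids, phenols and drugs. Sulfotransferases of the cytosol move a sulfate group from the donor PAPS to steroids, bile acids, phenols, thyroid hormones and amines. In the mouse several of them, among them some Sult2a enzymes and Sult3a1, are known to be much more abundant in the female than in the male liver. *Ugt2b1* and *Ugt2b38* stand on the list used here of genes higher in males.

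Of the 42 genes, 30 reached 1 TPM (a transcript level that takes out gene length and is relative to the summed level of the liver) in at least 3 of the 12 livers, 16 Ugt genes and 14 Sult genes, and changes were computed for these. *Sult2a3*, *Sult2a7*, *Sult3a1*, *Sult3a2* and *Sult5a1* reached 1 TPM in WT livers only, so they passed this filter through the groups where they are high. *Sult1e1* passed it through the knockout livers. The same filter was applied to all genes. The other 12, 5 Ugt genes (*Ugt1a2*, *Ugt1a8*, *Ugt2a1*, *Ugt2a2* and *Ugt2b38*) and 7 Sult genes (*Sult1c1*, *Sult2a4*, *Sult2a6*, *Sult2b1*, *Sult4a1*, *Sult6b1* and *Sult6b2*), were left out of the tests, and 3 of them, *Sult1c1*, *Ugt2a1* and *Ugt2a2*, were listed at 0 in every liver. *Sult2b1*, the cholesterol sulfotransferase of the skin, was highest in a YAP1 KO liver at 0.215 TPM. *Sult4a1*, a sulfotransferase of the brain, reached 0.094 TPM and *Sult6b2* reached 0.589 TPM.

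Members of a subfamily lie side by side in the genome and resemble each other, and this limits how reads can be told apart between them. The 9 Ugt1a genes lie on chromosome 1 of GRCm38 between 88055388 and 88220002 on the plus strand. Each has a first exon and a promoter of its own and is spliced to the same following exons, so between 50.3% and 60.6% of the exonic bases of each member belong to other members too.

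*Sult2a1* and *Sult2a2* on chromosome 7 are also close copies, with 97.3% identity over 99.9% of the *Sult2a2* transcript. The first 151 coding bases are the same in both. The first 90 of them are shown as an example of sequence that does not tell the genes apart by itself; how reads were assigned was not tested.

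Sult2a1 and Sult2a2, coding bases from the start codon: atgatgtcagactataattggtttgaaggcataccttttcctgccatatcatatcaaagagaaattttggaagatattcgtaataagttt

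By shared exons or by a copy of at least 90% identity over at least 30% of the transcript, 18 of the 30 tested genes shared sequence with another gene and 12 did not. Values of the 18, which are the Ugt1a genes, *Ugt2b5*, *Ugt2b36*, *Ugt2b37*, *Ugt3a1*, *Ugt3a2*, *Sult2a1*, *Sult2a2*, *Sult2a3*, *Sult2a5*, *Sult3a1* and *Sult3a2*, are therefore uncertain as values of single genes, and their sums by subfamily are given too.

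Promoter sequence is shown for 3 Ugt1a genes that start the same shared exons from different promoters and differed in direction, and for the Sult gene with the largest fall in YAP1 KO mice and the only Sult gene that rose. Each is the stretch up to the start of the gene from the RefSeq promoter table of GRCm38.p6, written 5′ to 3′ on the strand of the gene, and capitals mark the letters GTTAAT (part of the site of HNF1, a liver transcription factor), TTCNNNGAA (STAT5, which carries growth hormone signals) or GCGTG (the core of an AHR site), searched on both strands, so that ATTAAC is GTTAAT on the other strand. The positions are chr1:88211709-88211958 for *Ugt1a1*, chr1:88165762-88166011 for *Ugt1a5*, chr1:88134559-88134808 for *Ugt1a6a*, chr10:33857472-33857720 for *Sult3a1*, all on the plus strand, and chr5:87591612-87591861 on the minus strand for *Sult1e1*.

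Ugt1a1: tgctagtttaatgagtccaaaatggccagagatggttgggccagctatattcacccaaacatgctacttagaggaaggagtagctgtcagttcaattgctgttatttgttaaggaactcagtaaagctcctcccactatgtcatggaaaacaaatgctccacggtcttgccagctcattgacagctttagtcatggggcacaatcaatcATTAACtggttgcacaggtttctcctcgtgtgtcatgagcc
Ugt1a5: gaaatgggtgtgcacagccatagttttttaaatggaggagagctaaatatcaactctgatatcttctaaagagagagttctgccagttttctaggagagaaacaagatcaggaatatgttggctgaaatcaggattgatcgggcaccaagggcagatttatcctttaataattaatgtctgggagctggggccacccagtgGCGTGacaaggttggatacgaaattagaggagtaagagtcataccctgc
Ugt1a6a: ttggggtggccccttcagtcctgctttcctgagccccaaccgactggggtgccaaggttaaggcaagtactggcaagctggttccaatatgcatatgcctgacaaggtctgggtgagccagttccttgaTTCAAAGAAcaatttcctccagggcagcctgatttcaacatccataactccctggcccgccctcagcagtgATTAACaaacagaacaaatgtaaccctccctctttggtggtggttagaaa
Sult3a1: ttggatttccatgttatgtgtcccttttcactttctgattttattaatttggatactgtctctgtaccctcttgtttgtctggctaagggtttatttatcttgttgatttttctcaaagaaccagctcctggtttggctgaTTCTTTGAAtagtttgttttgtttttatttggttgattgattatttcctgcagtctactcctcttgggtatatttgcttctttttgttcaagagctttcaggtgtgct
Sult1e1: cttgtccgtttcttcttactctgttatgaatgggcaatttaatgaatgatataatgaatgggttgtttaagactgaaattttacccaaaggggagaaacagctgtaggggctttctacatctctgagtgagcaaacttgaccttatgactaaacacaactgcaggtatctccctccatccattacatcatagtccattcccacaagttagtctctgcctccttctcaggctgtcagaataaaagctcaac

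Of the tested genes, 25 had a promoter in that table. GTTAAT stood in 11 of the 25 (44%) and in 6.52% of 27025 promoters of all genes, and among the 11 were *Ugt1a1*, *Ugt1a6a*, *Ugt2a3*, *Sult1a1* and *Sult1d1*. TTCNNNGAA was found in 2 (8%, *Sult3a1* and *Ugt1a6a*) against 7.18% of all promoters, and GCGTG in 2 (8%, *Ugt1a5* and *Sult1d1*) against 28.2%. CAAAGTCCA, a form of the HNF4 motif, and TGACNNNGC, the NRF2 antioxidant response element, were in none of the 25 and in 0.381% and 10.1% of all promoters. These are matches of letters within the 250 bases before the start and not shown binding sites.

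*Yap1*, the deleted gene, was at 28.2 to 33.2 TPM in the WT livers of both backgrounds, at 1.67 to 3.72 TPM in YAP1 KO livers and at 8.63 to 11.5 TPM in YKTH livers. *Wwtr1* was at 6.26 to 6.83 TPM in WT (C57BL/6) and 13.3 to 16.7 TPM in YAP1 KO livers. In WT (mixed) livers it was at 7.73 to 8.38 TPM and in YKTH livers at 11.5 to 14.1 TPM. It was thus higher in both knockout groups than in their littermates, and the YKTH and YAP1 KO ranges overlapped. Set against littermates, its level did not show the loss of 1 copy. The 10 hepatocyte markers summed to 108690 to 120908 TPM in WT (C57BL/6), 84112 to 95206 TPM in YAP1 KO, 100211 to 122147 TPM in WT (mixed) and 82833 to 97370 TPM in YKTH livers, and none of them was at 0 throughout. Most of this sum was *Alb*, at 51588 to 83138 TPM over all livers. Of the 10, 4 were lower, 0 higher and 6 did not pass in each model, with median log2 changes of -0.09 and -0.49. The 40% that were lower stand beside 17.6% and 18.1% of all tested genes. Sums of the 8 macrophage markers were 216 to 264, 642 to 973, 179 to 381 and 760.0 to 839 TPM in the same order, those of the 8 stellate cell and fibroblast markers 134 to 158, 339 to 441, 119 to 151 and 296 to 378 TPM, those of the 8 cholangiocyte markers 37.3 to 65.2, 351 to 778, 50.6 to 69.1 and 128 to 262 TPM, and those of the 7 endothelial markers 78.7 to 86.6, 77.0 to 115, 103 to 108 and 94.5 to 129 TPM. Most of the cholangiocyte sum in the knockout livers was *Spp1*, which other cells also express, at 303 to 725 TPM in YAP1 KO and 84.4 to 208 TPM in YKTH livers; *Sox9* and *Tspan8* were also higher in both models, *Krt19* (log2 change 0.19 and -0.997) passed in neither and *Epcam* (-0.35 and -1.48) was lower in YKTH livers. The part of these shifts in the changes below was not tested.

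Ugt and Sult transcripts together made up 5237 to 6115 TPM in WT (C57BL/6) livers and 3133 to 3358 TPM in YAP1 KO livers, and 5342 to 6920 TPM in WT (mixed) livers and 2955 to 3676 TPM in YKTH livers. The groups did not overlap in either model. The mean Ugt sum of YAP1 KO livers was 0.663 of that of WT (C57BL/6) livers and the mean Sult sum 0.354 of it, and in YKTH livers the values were 0.589 and 0.411. Sums are of deposited TPM, without scaling and with no test.

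**Figure D1:**
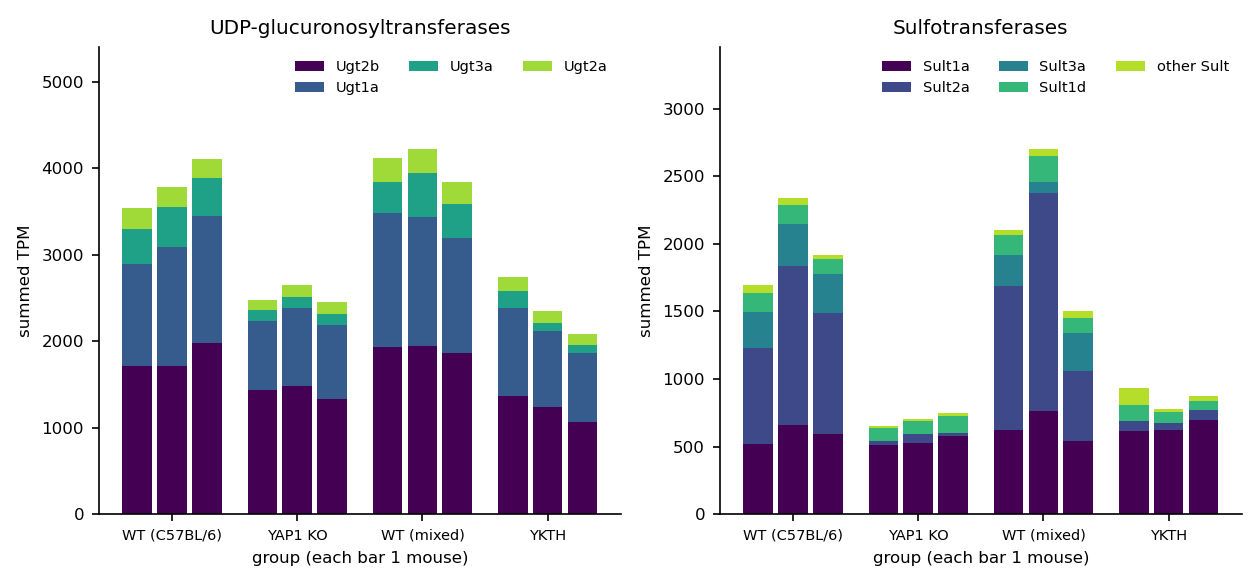
Summed TPM of the Ugt genes (left) and Sult genes (right) in each of the 12 livers, 1 bar per mouse, stacked by subfamily, with no error bars since each bar is 1 liver. Every knockout liver stands below every WT liver in both panels, and the Sult2a and Sult3a layers are almost gone in the knockout livers while the Sult1a layer stays.

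For tests, each TPM was scaled by its library factor, 1 was added and log2 was taken, and the groups were compared with limma over 12159 genes with Benjamini-Hochberg adjustment. A log2 change on this log2(scaled TPM + 1) scale understates the change of genes at low levels. In YAP1 KO livers 23 of the 30 genes were lower, 3 were higher and 4 did not pass the threshold of 0.05, and the median log2 change was -1.53. Of all tested genes 36.1% passed, 17.6% as lower and 18.5% as higher, with a median log2 change of -0.03. In YKTH livers 19 of the 30 were lower, 1 was higher and 10 did not pass, with a median of -1.28; of all tested genes 37.4% passed, 18.1% as lower and 19.4% as higher, with a median of -0.03. Among the genes that share no sequence, 9 of 12 were lower and 1 was higher in either model. These counts include the genes that reached 1 TPM in WT livers only, which could be counted only as lower or as not passing.

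Falls of at least 1 on the log2 scale that also passed the threshold were seen for 19 of the 30 in YAP1 KO livers and 15 of 30 in YKTH livers, against 4.08% and 3.99% of all tested genes. All of the genes that reached 1 TPM in WT livers only are among the 19, and all of them but *Sult2a3* among the 15. *Sult1e1* was the only rise of that size past the threshold in either model, where 7.76% and 7.4% of all tested genes rose so far. In deposited TPM, knockout and WT groups stood apart for 25 of the 30 in YAP1 KO livers, 21 lower and 4 higher, against 56.4% of all tested genes, 9.2% lower and 47.2% higher. They stood apart for 19 of the 30 in YKTH livers, 16 lower and 3 higher, against 54.4% of all tested genes, 9.96% lower and 44.4% higher. In both models 17 genes were lower and 1, *Sult1e1*, was higher. In YAP1 KO livers alone 6 more were lower (*Sult1a1*, *Sult2a1*, *Sult2a2*, *Sult2a3*, *Sult2a5* and *Ugt2b37*) and 2 higher (*Ugt1a6a* and *Ugt1a6b*), and in YKTH livers alone *Ugt1a7c* and *Ugt2b34* were lower. *Ugt1a9* and *Ugt2b35* passed in neither. A call in 1 model and not in the other does not show that the models differ; that difference was tested by itself and is given at the end.

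The scaling matters for the size of these changes. The factors were 0.851 to 0.911 in WT (C57BL/6) and 1.08 to 1.22 in YAP1 KO livers, and 0.861 to 0.952 in WT (mixed) and 1.07 to 1.18 in YKTH livers. Without scaling the median log2 change of all genes was 0.28 in YAP1 KO and 0.25 in YKTH livers, and 84.0% and 82.4% of all calls were higher in place of 51.3% and 51.7%. The genes followed here then gave 20 lower and 4 higher calls in YAP1 KO livers and 17 lower and 2 higher in YKTH livers. Changes below are relative to the bulk of the genes.

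**Figure D2:**
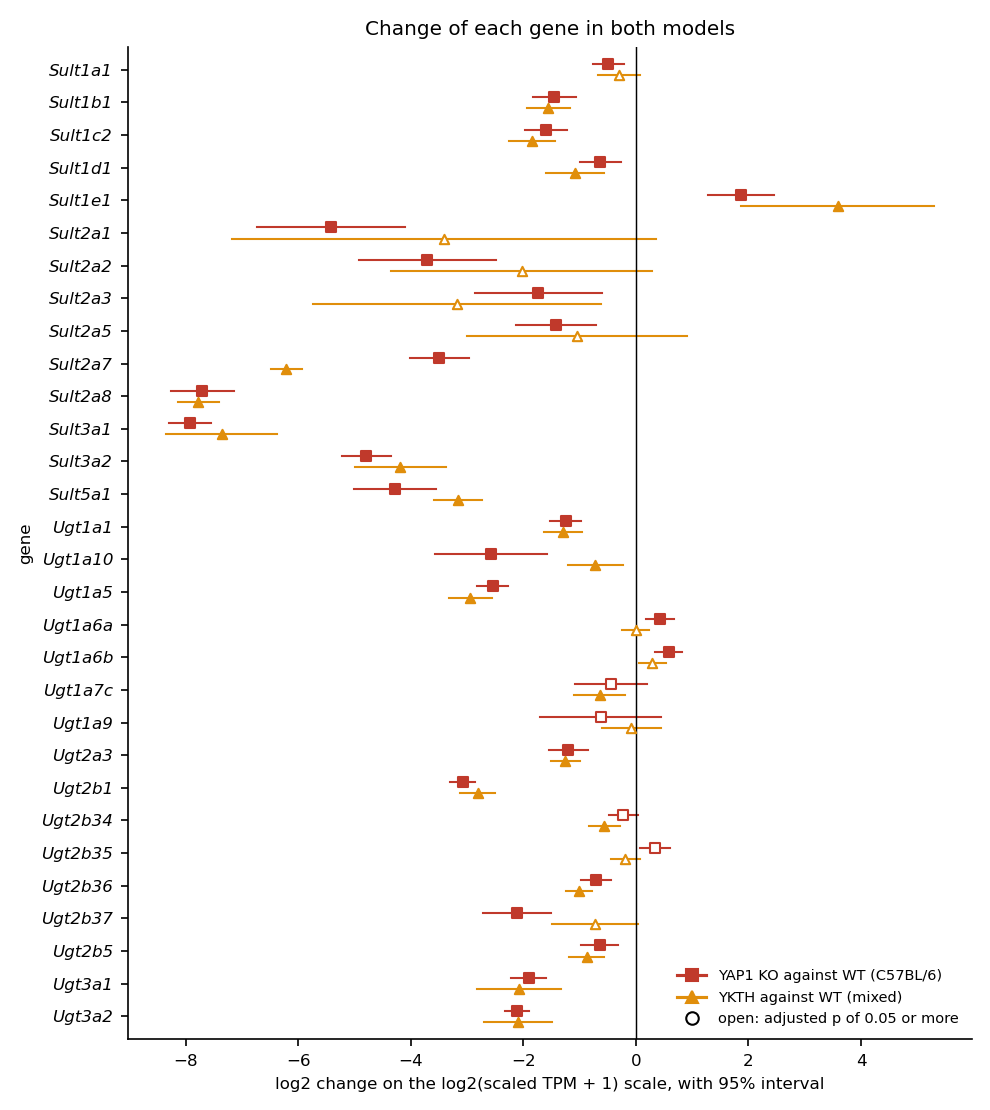
Log2 change on the log2(scaled TPM + 1) scale (x axis) of the 30 tested genes (y axis) in YAP1 KO mice against WT (C57BL/6) littermates (squares) and in YKTH mice against WT (mixed) littermates (triangles), with 95% intervals from limma, and open symbols where the adjusted p was 0.05 or more. Most genes lie left of 0 in both models, *Sult3a1* and *Sult2a8* farthest, and *Sult1e1* lies to the right in both.

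*Ugt1a1* (ENSMUSG00000089960, chr1:88211959-88218997, plus strand) encodes the enzyme that conjugates bilirubin. It was the most abundant Ugt gene in the mean of each WT group, and *Ugt2b5* was above it in all 6 knockout livers. It was at 751, 949 and 982 TPM in WT (C57BL/6) livers against 475, 478 and 489 TPM in YAP1 KO livers. WT (mixed) livers held 892, 1003 and 849 TPM and YKTH livers 589, 400.2 and 421 TPM. The groups did not overlap in either set, and the YKTH livers spread more widely than the YAP1 KO livers. On the log2 scale the change was -1.25 (SE 0.12, adjusted p = 0.000202, limma) in YAP1 KO and -1.29 (SE 0.15, adjusted p = 0.000558, limma) in YKTH livers.

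*Ugt1a5* (chr1:88166012-88218997), which starts upstream of *Ugt1a1* and shares its later exons, fell further. It was at 203, 218 and 193 TPM in WT (C57BL/6) and 41.1, 43.1 and 48.5 TPM in YAP1 KO livers, and at 309, 181 and 220.5 TPM in WT (mixed) and 36.2, 38.7 and 34.4 TPM in YKTH livers. Every knockout liver was below every WT liver, with log2 changes of -2.54 (SE 0.12, adjusted p = 5.98e-06, limma) and -2.95 (SE 0.16, adjusted p = 2.2e-05, limma). Its share of all Ugt1a TPM went from 15.4% ± 2.10 to 5.21% ± 0.458 in YAP1 KO livers and from 16.1% ± 3.91 to 4.07% ± 0.450 in YKTH livers (SD, n = 3 each).

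The *Ugt1a6* genes, whose enzymes act on simple phenols, went the other way on the deposited scale. *Ugt1a6a* ran from 63.8 to 74.1 TPM in WT (C57BL/6) and from 109.6 to 124 TPM in YAP1 KO livers, and from 71.0 to 86.6 TPM in WT (mixed) and from 91.5 to 111 TPM in YKTH livers. *Ugt1a6b* was at 52.7 to 58.6 TPM, 107 TPM in all 3, 63.4 to 70.2 TPM and 93.7 to 121 TPM in the same order. None of these pairs of groups overlapped in TPM. After scaling both passed as higher in YAP1 KO livers, *Ugt1a6a* with a log2 change of 0.43 (adjusted p = 0.0169, limma) and *Ugt1a6b* with 0.59 (adjusted p = 0.00379, limma), and neither passed in YKTH livers, where the changes were 0.00 (adjusted p = 0.998, limma) and 0.29 (adjusted p = 0.0572, limma). Without scaling the YKTH changes were 0.31 (adjusted p = 0.0626, limma) and 0.61 (adjusted p = 0.00506, limma). The *Ugt1a6a* call in YAP1 KO livers was lost without WT mouse LM192 or LM193 or YAP1 KO mouse LM191 (adjusted p = 0.07, 0.0648 and 0.0555, limma). As a share of all Ugt1a TPM, *Ugt1a6a* went from 5.09% ± 1.05 to 13.8% ± 1.66 in YAP1 KO and from 5.51% ± 0.172 to 11.2% ± 1.02 in YKTH livers (SD, n = 3), a ratio that scaling does not touch. This share also follows the fall of the other Ugt1a genes. The mean Ugt1a sum was 0.633 of that of littermates in YAP1 KO and 0.617 in YKTH livers, and mean *Ugt1a6a* TPM was 1.74 and 1.25 times that of littermates.

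Of the other Ugt1a genes, *Ugt1a10* was low. It was at 11.9, 6.32 and 6.84 TPM in WT (C57BL/6) and 0, 0.527 and 2.58 TPM in YAP1 KO livers, with a log2 change of -2.57 (SE 0.43, adjusted p = 0.00278, limma), and at 2.66, 1.65 and 2.20 TPM in WT (mixed) and 1.28, 1.79 and 0.618 TPM in YKTH livers, where the groups overlapped and the change was -0.72 (SE 0.21, adjusted p = 0.0293, limma). In the YKTH set its call was lost when WT mouse LM226 or LM230 or YKTH mouse LM225 or LM251 was left out (adjusted p = 0.0901, 0.078, 0.0536 and 0.0849, limma). *Ugt1a7c*, at 2.09 to 6.30 TPM over all 12 livers, passed in YKTH livers only (-0.65, adjusted p = 0.0358, limma), though not without WT mouse LM226 or LM227 or YKTH mouse LM225 or LM250 (adjusted p = 0.0826 to 0.11, limma), and *Ugt1a9*, at 46.8 to 253 TPM, passed in neither model. The Ugt1a sum was 1177 to 1469 TPM in WT (C57BL/6), 798 to 899.8 TPM in YAP1 KO, 1333 to 1558 TPM in WT (mixed) and 807 to 1018 TPM in YKTH livers. This sum still depends on how reads of shared sequence were divided. Lengths differ, and *Ugt1a9* and *Ugt1a10* resemble *Gm15375*, a gene whose symbol is not of the form followed here.

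**Figure D3:**
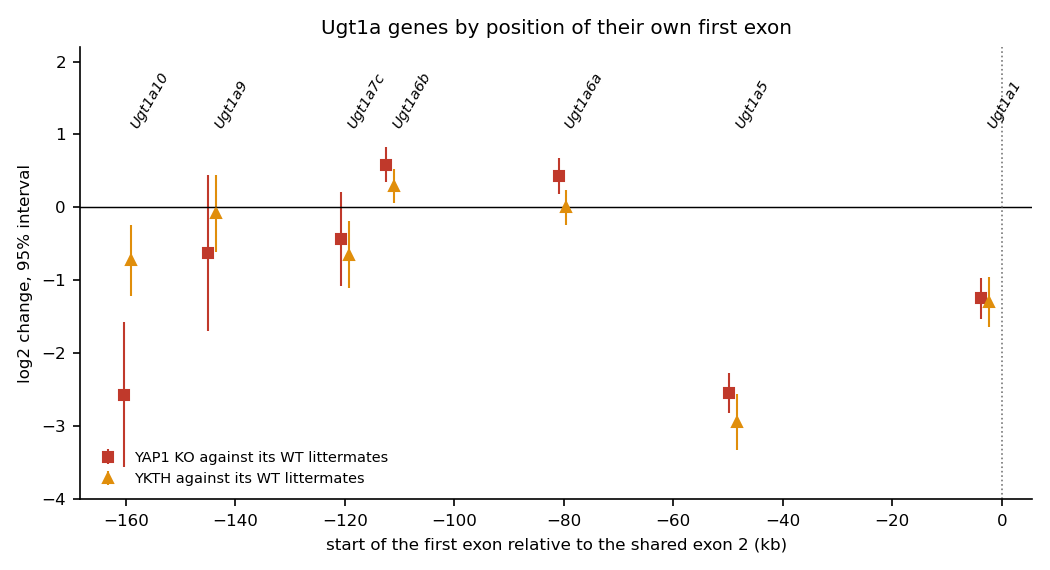
Log2 change with 95% intervals (y axis) of the 7 tested Ugt1a genes in YAP1 KO (squares) and YKTH livers (triangles), placed by the distance from the start of the gene's own first exon to the shared exon 2 (x axis, in kb; symbols are shifted slightly sideways). The first exons lie from 160 kb (*Ugt1a10*) to 3.09 kb (*Ugt1a1*) before the shared exon, and the order of the changes does not follow the order of the distances: *Ugt1a5*, at 49.0 kb, is lowest in YKTH livers and its neighbour *Ugt1a6a*, at 80.2 kb, lies above 0 in YAP1 KO and at 0 in YKTH livers.

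The Ugt2 genes lie on chromosome 5, and their enzymes act on steroids, bile acids and drugs. *Ugt2b1* (ENSMUSG00000035836, chr5:86916638-86926530, minus strand) fell most among them. It was at 243, 232 and 237 TPM in WT (C57BL/6) and 39.3, 31.3 and 35.6 TPM in YAP1 KO livers, and at 257, 257 and 232 TPM in WT (mixed) and 37.1, 48.0 and 44.7 TPM in YKTH livers. The spread within each group was small beside the drop, which was -3.08 on the log2 scale (SE 0.10, adjusted p = 1.06e-06, limma) in YAP1 KO and -2.81 (SE 0.14, adjusted p = 1.04e-05, limma) in YKTH livers. *Ugt2b1* shares no sequence with other genes by the limits used here.

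*Ugt2a3*, the only Ugt2a gene listed above 0, was at 250.2, 229.8 and 224 TPM in WT (C57BL/6), 113, 141 and 139.7 TPM in YAP1 KO, 281, 272 and 257 TPM in WT (mixed) and 166, 139.8 and 118 TPM in YKTH livers. The groups stood apart, with log2 changes of -1.20 (SE 0.15, adjusted p = 0.000671, limma) and -1.26 (SE 0.11, adjusted p = 0.000171, limma). The abundant *Ugt2b5*, at 700.3, 646 and 851 TPM in WT (C57BL/6) and 578, 628 and 593 TPM in YAP1 KO livers, fell by a smaller amount (-0.64, SE 0.14, adjusted p = 0.00917, limma). It was at 747, 741 and 801 TPM in WT (mixed) and 615, 529 and 425 TPM in YKTH livers (-0.88, SE 0.14, adjusted p = 0.00211, limma). The YAP1 KO call for *Ugt2b5* was lost without scaling (-0.28, adjusted p = 0.0817, limma).

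*Ugt2b36* was at 476, 487 and 574 TPM in WT (C57BL/6), 408, 419 and 372 TPM in YAP1 KO, 570.0, 595 and 529 TPM in WT (mixed) and 364, 349 and 331 TPM in YKTH livers. Its log2 changes were -0.72 (SE 0.12, adjusted p = 0.00237, limma) and -1.01 (SE 0.10, adjusted p = 0.000268, limma). *Ugt2b37*, a close copy of *Ugt2b5*, was at 20.4, 17.5 and 9.27 TPM in WT (C57BL/6) and 4.50, 3.20 and 3.15 TPM in YAP1 KO livers (-2.11, SE 0.27, adjusted p = 0.000711, limma). In the mixed set it was low in the WT livers too, at 8.98, 3.33 and 2.58 TPM, against 3.20, 3.03 and 2.29 TPM in YKTH livers, and the groups overlapped (-0.73, SE 0.33, adjusted p = 0.116, limma). Without WT mouse LM230 the change was -1.01 (adjusted p = 0.0499, limma). *Ugt2b34* ran from 158 to 257 TPM over the 12 livers and passed in YKTH livers only (-0.56, adjusted p = 0.00896, limma), a call that was lost without scaling (-0.24, adjusted p = 0.202, limma).

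*Ugt2b35*, at 75.4 to 88.0 TPM in WT (C57BL/6) and 114 to 157 TPM in YAP1 KO livers, missed the threshold in YAP1 KO livers (0.34, adjusted p = 0.0507, limma) and passed it without scaling (0.71, adjusted p = 0.00349, limma) and without YAP1 KO mouse LM191 (0.45, adjusted p = 0.023, limma). In the mixed set its groups, at 85.7 to 111 and 97.5 to 116 TPM, overlapped. The Ugt2b sum was 1708 to 1978 TPM in WT (C57BL/6), 1331 to 1480 TPM in YAP1 KO, 1860 to 1941 TPM in WT (mixed) and 1059 to 1363 TPM in YKTH livers.

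Both Ugt3a genes, on chromosome 15, fell in both models. Their human relatives are known to use sugars other than glucuronic acid. *Ugt3a2* was at 330.4, 378 and 365 TPM in WT (C57BL/6) and 110.2, 105 and 101 TPM in YAP1 KO livers, and at 302, 415 and 326 TPM in WT (mixed) and 160, 76.5 and 80.6 TPM in YKTH livers. *Ugt3a1* was at 76.3, 77.9 and 73.7 TPM, 22.4, 27.6 and 25.9 TPM, 50.9, 91.4 and 61.5 TPM, and 32.1, 15.4 and 12.9 TPM in the same order. No groups overlapped, and among YKTH mice LM225 was the highest for both genes. The log2 changes were -2.11 (SE 0.09, adjusted p = 3.79e-06, limma) and -2.09 (SE 0.26, adjusted p = 0.000793, limma) for *Ugt3a2*, and -1.91 (SE 0.13, adjusted p = 4.06e-05, limma) and -2.08 (SE 0.33, adjusted p = 0.00225, limma) for *Ugt3a1*.

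**Figure D4:**
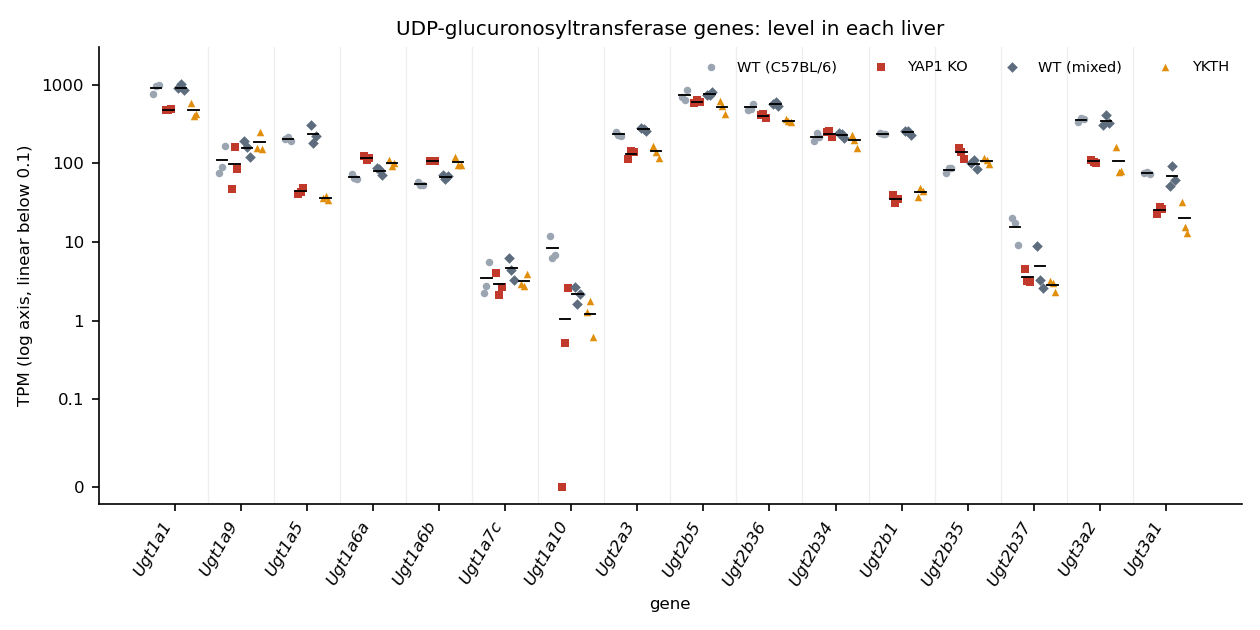
TPM (y axis, log scale above 0.1 and linear below) of the 16 tested Ugt genes (x axis) in each liver, 1 point per mouse, with a line at the mean of each group of 3. *Ugt1a5* and *Ugt2b1* show the widest gaps between WT and knockout livers among the abundant genes, and in deposited TPM *Ugt1a6a* and *Ugt1a6b* are higher in the knockout livers of both sets, which after scaling passed in YAP1 KO livers only.

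The largest falls of all were in the Sult genes. *Sult3a1* (ENSMUSG00000069668, chr10:33857721-33879532, plus strand), a sulfotransferase that is known to be predominant in female mouse liver, was at 244, 274 and 263 TPM in WT (C57BL/6) livers against 0.660, 0 and 0.184 TPM in YAP1 KO livers. WT (mixed) livers held 212, 69.2 and 253 TPM and YKTH livers 0, 0.207 and 0 TPM. WT mouse LM227 was well below its littermates and still far above every knockout liver. The fitted log2 changes were -7.93 (SE 0.16, adjusted p = 1.18e-07, limma) and -7.36 (SE 0.43, adjusted p = 2.54e-05, limma). Its neighbour and close copy *Sult3a2* was at 17.7, 32.2 and 22.6 TPM in WT (C57BL/6) and 13.5, 9.42 and 28.5 TPM in WT (mixed) livers and was listed at 0 in all 6 knockout livers, so no fold is given; it passed as lower in both (adjusted p = 2.83e-06 and 0.000133, limma).

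The Sult2a enzymes act on hydroxysteroids and bile acids, and 6 of the 8 Sult2a genes, which lie on chromosome 7 between 13623967 and 14494230, were tested. *Sult2a8* (ENSMUSG00000030378, chr7:14410686-14446769, minus strand), which is known to sulfate bile acids, was at 507, 369 and 369 TPM in WT (C57BL/6) and 2.70, 1.06 and 0.833 TPM in YAP1 KO livers. It was at 411, 385 and 416 TPM in WT (mixed) and 0.737, 1.29 and 1.57 TPM in YKTH livers. It ended at 0.737 to 2.70 TPM in the 6 knockout livers, with log2 changes of -7.71 (SE 0.24, adjusted p = 1.06e-06, limma) and -7.78 (SE 0.16, adjusted p = 1.66e-07, limma). *Sult2a8* shares no sequence with other genes by the limits used here.

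*Sult2a1* was at 62.2, 312 and 169 TPM in WT (C57BL/6) and 2.24, 7.12 and 2.09 TPM in YAP1 KO livers (-5.42, SE 0.57, adjusted p = 0.000302, limma). Its copy *Sult2a2* was at 132, 479 and 339.7 TPM and at 20.9, 52.6 and 16.5 TPM (-3.70, SE 0.53, adjusted p = 0.00131, limma). Both were lower in every YAP1 KO liver. In the mixed set 1 WT mouse stood apart. *Sult2a1* was at 187 and 444 TPM in WT mice LM226 and LM227 but at 1.83 TPM in WT mouse LM230, below the 6.20, 4.68 and 7.49 TPM of the YKTH livers. *Sult2a2* was likewise at 380.2, 664 and 27.6 TPM in the WT and at 71.1, 44.9 and 60.3 TPM in the YKTH livers.

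With LM230 in the fit neither gene passed in YKTH livers, with log2 changes of -3.41 (SE 1.63, adjusted p = 0.136, limma) for *Sult2a1* and -2.03 (SE 1.0, adjusted p = 0.148, limma) for *Sult2a2*. Without LM230 they passed, with -5.64 (SE 0.39, adjusted p = 0.000266, limma) and -3.39 (SE 0.29, adjusted p = 0.000586, limma). The same mouse was low in *Sult2a3* and *Sult2a5*. *Sult2a3* was at 11.4, 40.0 and 0.204 TPM in WT (mixed) livers and listed at 0 in all YKTH livers, and *Sult2a5* was at 8.24, 15.2 and 0.298 TPM against 1.51, 1.94 and 3.53 TPM. Neither passed with LM230 (adjusted p = 0.0551 and 0.364, limma) and both did without it (adjusted p = 0.00117 and 0.00579, limma). *Sult2a3* also passed with LM230 kept under 5 alternatives, which were quantile normalization, no scaling, a filter at 5 TPM, a pseudocount of 0.1 and all 12 libraries in 1 fit (adjusted p = 0.0207 to 0.0481, limma). With LM230 left out, 24 of the 30 genes passed in YKTH livers, 23 lower and 1 higher.

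LM230 was not low in every Sult gene. It held 416 TPM of *Sult2a8*, 71.1 TPM of *Sult2a7*, 253 TPM of *Sult3a1* and 539 TPM of *Sult1a1*, all within or near the range of the other WT livers, and 31.0 TPM of *Yap1*. In WT (C57BL/6) livers *Sult2a3* was at 0.448, 1.98 and 5.78 TPM and *Sult2a5* at 3.60, 3.65 and 3.79 TPM, and in YAP1 KO livers *Sult2a3* was listed at 0 in all and *Sult2a5* was at 0.486, 2.55 and 0.611 TPM (adjusted p = 0.0268 and 0.00896, limma). The *Sult2a3* call was lost without WT mouse LM192 or any 1 of the YAP1 KO mice (adjusted p = 0.0634 to 0.0699, limma), with no filter (adjusted p = 0.0524, limma) and with all 12 libraries in 1 fit (adjusted p = 0.17, limma). That last fit also lost the *Sult2a5* call (adjusted p = 0.132, limma).

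*Sult2a7* (ENSMUSG00000094156, chr7:14465051-14494230, minus strand) was the only gene of the 30 that passed the test between the WT groups. It was at 6.87, 14.2 and 8.15 TPM in WT (C57BL/6) and at 73.4, 63.9 and 71.1 TPM in WT (mixed) livers, a log2 change of 2.71 (SE 0.21, adjusted p = 0.00212, limma), where 0.173% of all tested genes passed, 0.14% as higher and 0.0329% as lower in WT (mixed) livers. In the knockout livers it was near 0 in both sets, at 0, 0 and 0.0833 TPM in YAP1 KO and 0, 0 and 0.199 TPM in YKTH livers. The fitted falls were -3.49 (SE 0.23, adjusted p = 2.85e-05, limma) and -6.21 (SE 0.12, adjusted p = 1.37e-07, limma).

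*Sult5a1*, on chromosome 8, also fell to almost nothing. It was at 27.3, 18.8 and 9.90 TPM in WT (C57BL/6), 0.0646, 0.0234 and 0.108 TPM in YAP1 KO, 9.03, 5.34 and 8.52 TPM in WT (mixed) and 0.0670, 0 and 0.0647 TPM in YKTH livers. The fitted log2 changes were -4.28 (SE 0.32, adjusted p = 5.73e-05, limma) and -3.17 (SE 0.18, adjusted p = 2.54e-05, limma). For genes that end this low the fitted size depends on the pseudocount. With 0.1 in place of 1 it was -6.99 and -5.95 for *Sult5a1*, -6.46 and -9.09 for *Sult2a7*, and -10.16 and -10.25 for *Sult3a1*, in YAP1 KO and YKTH livers, and all of them passed.

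The Sult2a sum was 712 to 1179 TPM in WT (C57BL/6), 20.1 to 63.3 TPM in YAP1 KO, 517 to 1613 TPM in WT (mixed) and 52.9 to 79.6 TPM in YKTH livers, so it stood apart in both sets, with LM230 as the lowest WT liver. Most of what was left in the knockout livers was counted as *Sult2a2*, 81.5% ± 1.89 of the Sult2a sum in YAP1 KO and 85.6% ± 3.48 in YKTH livers, against 32.4% ± 12 and 27.3% ± 19.3 in their littermates (SD, n = 3). *Sult2a8* held 47.9% ± 20.8 and 47.6% ± 29.4 of it in the WT livers and 5.35% ± 4.41 and 1.84% ± 0.802 in the knockout livers.

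The Sult1 enzymes act on phenols, thyroid hormones, amines and estrogens. *Sult1a1*, the phenol sulfotransferase and the most abundant Sult gene, was at 520.2, 660.0 and 596 TPM in WT (C57BL/6), 514, 529 and 579 TPM in YAP1 KO, 619, 764 and 539 TPM in WT (mixed) and 612, 619 and 699 TPM in YKTH livers. The groups overlapped in both sets. Relative to the bulk of the genes its log2 change was -0.49 (SE 0.12, adjusted p = 0.0156, limma) in YAP1 KO and -0.30 (SE 0.16, adjusted p = 0.176, limma) in YKTH livers, and without scaling it was -0.13 (adjusted p = 0.376, limma) and 0.02 (adjusted p = 0.93, limma). The YAP1 KO call was also lost without WT mouse LM192 (-0.43, adjusted p = 0.0612, limma). With the other Sult genes lower, *Sult1a1* went from 30% ± 1.52 to 77.1% ± 1.76 of all Sult TPM in YAP1 KO and from 31.2% ± 4.07 to 74.9% ± 8.23 in YKTH livers (SD, n = 3).

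*Sult1b1*, a thyroid hormone sulfotransferase, was at 21.4, 21.5 and 14.1 TPM in WT (C57BL/6), 9.15, 7.61 and 7.66 TPM in YAP1 KO, 21.5, 26.0 and 28.6 TPM in WT (mixed) and 10, 8.72 and 11.2 TPM in YKTH livers. *Sult1c2* was at 10.6, 9.31 and 9.08 TPM, 3.10, 2.79 and 4.21 TPM, 11.4, 13.6 and 10.5 TPM, and 4.57, 2.52 and 2.97 TPM in the same order. Neither gene overlapped between WT and knockout livers. The log2 changes were -1.45 (SE 0.17, adjusted p = 0.000512, limma) and -1.56 (SE 0.16, adjusted p = 0.000382, limma) for *Sult1b1*, and -1.60 (SE 0.16, adjusted p = 0.000248, limma) and -1.85 (SE 0.17, adjusted p = 0.000222, limma) for *Sult1c2*.

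*Sult1d1*, which sulfates dopamine and other amines, was at 139.8, 140.4 and 111 TPM in WT (C57BL/6), 98.8, 97.5 and 128 TPM in YAP1 KO, 147, 199 and 117 TPM in WT (mixed) and 119, 82.6 and 68.8 TPM in YKTH livers. The groups overlapped by 1 mouse in each set, with log2 changes of -0.63 (SE 0.16, adjusted p = 0.0163, limma) and -1.09 (SE 0.22, adjusted p = 0.00705, limma). The YAP1 KO call was lost without scaling (-0.27, adjusted p = 0.15, limma) and without WT mouse LM192 or YAP1 KO mouse LM189 (adjusted p = 0.0547 and 0.052, limma).

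*Sult1e1* (ENSMUSG00000029272, chr5:87575969-87591594, minus strand), the estrogen sulfotransferase, lies 6.94 kb from *Sult1d1* and was the only Sult gene that rose. It was at 0.276, 0.768 and 0 TPM in WT (C57BL/6) and 3.58, 4.37 and 5.40 TPM in YAP1 KO livers, and at 0.190, 2.16 and 2.09 TPM in WT (mixed) and 111, 12.5 and 21.2 TPM in YKTH livers. Every knockout liver was above every WT liver of its set, and YKTH mouse LM225 was far above the others. The log2 changes were 1.86 (SE 0.25, adjusted p = 0.00107, limma) and 3.58 (SE 0.74, adjusted p = 0.00727, limma). Without LM225 the YKTH change was 2.71 (SE 0.48, adjusted p = 0.00504, limma), and with a pseudocount of 0.1 the YAP1 KO change was 3.54 (adjusted p = 0.00771, limma).

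**Figure D5:**
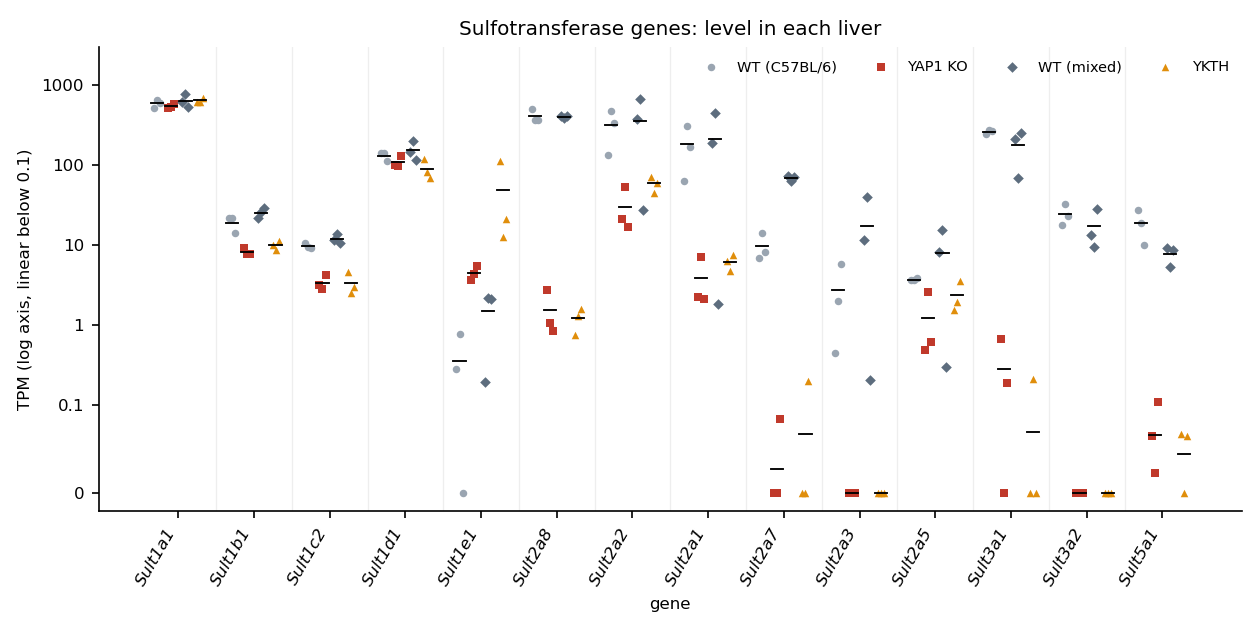
TPM (y axis, log scale above 0.1 and linear below) of the 14 tested Sult genes (x axis) in each liver, 1 point per mouse, with a line at the mean of each group of 3. *Sult2a8* and *Sult3a1* drop from 69.2 to 507 TPM in the WT livers to 2.70 TPM or less in the knockout livers of both sets, *Sult1e1* rises, *Sult1a1* stays near 600 TPM, and 1 WT (mixed) point lies among or below the knockout points for *Sult2a1*, *Sult2a2* and *Sult2a5*.

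The supply of the sugar and sulfate donors was looked at in fixed lists, in which the genes above are not counted. Of 6 genes of UDP-glucuronic acid supply 2 were higher and 2 lower in both models. That is 66.7% past the threshold in each, beside 36.1% and 37.4% of all tested genes. *Ugdh*, which oxidizes UDP-glucose to UDP-glucuronic acid, was higher (log2 change 1.88 and 1.43, adjusted p = 5.9e-05 and 0.000126, limma), and so was *Pgm2* (0.99 and 0.91). *Ugp2*, which makes UDP-glucose, was lower (-1.03 and -1.44, adjusted p = 0.00486 and 0.000563, limma). *Pgm1* passed as lower after scaling (-0.38 and -0.44), but in deposited TPM its groups overlapped in both sets. It was at 144 to 157 TPM in WT (C57BL/6) and 143 to 155 TPM in YAP1 KO livers. In WT (mixed) livers it was at 154 to 171 TPM and in YKTH livers at 143 to 160 TPM. The list had a median log2 change of -0.04 in YAP1 KO and -0.01 in YKTH livers, near that of all genes. Of 9 genes of sulfate and PAPS supply 2 were lower and none higher in YAP1 KO livers, and 4 were lower and 1 higher in YKTH livers, with medians of -0.29 and -0.33. That is 22.2% and 55.6% past the threshold, beside 36.1% and 37.4% of all tested genes, and 22.2% and 44.4% lower, beside 17.6% and 18.1%. *Papss2*, a PAPS synthase of the liver, was at -1.11 and -1.21 and the sulfate transporter *Slc26a1* at -0.78 and -0.71, both past the threshold in both models.

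Around the conjugates, *Hmox1*, which opens the haem ring on the way to bilirubin, was higher (1.38 and 1.48). It was the only 1 of 4 bilirubin formation genes past the threshold in both models, and *Blvra* passed as lower in YAP1 KO livers after scaling. In deposited TPM *Blvra* overlapped, at 13.4 to 16.4 TPM in WT (C57BL/6) and 13.4 to 16.9 TPM in YAP1 KO livers. Of these 4 genes 50% and 25% passed, beside 36.1% and 37.4% of all tested genes. The deconjugation list held *Gusb*, *Arsa*, *Arsb* and *Ces1g*, and *Sts*, also chosen for it, had no row in the deposited data. Whether these enzymes act on the products of the Ugt and Sult enzymes was not tested. Of the 4 genes 3 were higher and none lower in each model, which is 75% higher beside 18.5% and 19.4% of all tested genes. The 3 included *Gusb*, the lysosomal beta-glucuronidase (1.14 and 1.10), and *Arsa*, a lysosomal sulfatase (1.69 and 1.10). Of 8 transporters of conjugates 2 were higher and 4 lower in YAP1 KO livers and 5 were lower and none higher in YKTH livers, which is 50% and 62.5% lower beside 17.6% and 18.1% of all tested genes. The uptake transporters *Slco1a1* (-5.59 and -4.38), *Slco1b2* (-1.36 and -1.78) and *Slco2b1* (-0.95 and -1.22) and the canalicular pump *Abcc2* (-0.50 and -0.67) were lower in both. In deposited TPM *Abcc2* overlapped in both sets, at 134 to 158 TPM in WT (C57BL/6) and 130 to 142 TPM in YAP1 KO livers. It was at 140 to 199 TPM in WT (mixed) and 121 to 166 TPM in YKTH livers. The medians were 1.04 and 0.68 for deconjugation and -0.53 and -0.64 for the transporters.

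Of 16 regulators of drug metabolism and of the liver, 7 were lower and 1 higher in each model, and 8 did not pass in each, with a median of -0.44 and -0.14. The 43.8% that were lower in each stand beside 17.6% and 18.1% of all tested genes. *Nr1i3*, the receptor CAR, was among those lower in both (-2.33 and -1.84), as were *Ppara* (-1.56 and -1.87), the bile acid receptor gene *Nr1h4* (-1.10 and -1.11) and *Cebpa* (-0.94 and -0.68). Of 14 genes known to be higher in female than in male liver, 12 were lower and 1 higher in YAP1 KO livers and 10 were lower and 1 higher in YKTH livers, with medians of -3.97 and -2.92. That is 85.7% and 71.4% lower, beside 17.6% and 18.1% of all tested genes. The steepest were *Cyp3a41a* (-9.62 and -6.19), *Cyp3a44* (-7.98 and -6.84), *Cyp2b13* (-6.74 and -5.51) and *A1bg* (-6.10 and -5.66). Of 10 tested genes known to be higher in males, 6 were lower and 3 higher in YAP1 KO livers and 7 were lower and 2 higher in YKTH livers. That is 60% and 70% lower, beside 17.6% and 18.1% of all tested genes. Those lower included *Mup7* (-6.67 and -7.07) and *Hsd3b5* (-3.81 and -2.59). *Cyp2d9* was higher in both, at 25.9 to 54.6 TPM in WT (C57BL/6) and 97.6 to 223 TPM in YAP1 KO livers. In the mixed set it was at 30.3 to 54.1 TPM in WT and 194 to 212 TPM in YKTH livers. *Mup20* was at 70.3 to 97.6 TPM in WT (C57BL/6) and 1228 to 2581 TPM in YAP1 KO livers. Its groups overlapped in the mixed set, at 44.3 to 86.0 TPM in WT and 69.3 to 378 TPM in YKTH livers. *Ugt2b1* and *Ugt2b38* also stand on this list but are not counted in it. *Ugt2b1* was lower in both models (-3.08 and -2.81) and *Ugt2b38* was not tested. All lists were chosen with earlier results of these data known.

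Whether the change of a gene differed between the models was tested as a contrast over the 12 livers. In it the TAZ allele, the floxed line, the reporter, the *Yap1* transcript left, the background and the litters cannot be told apart. Of the 30 genes 1 passed, *Sult2a7*, where 0.0576% of all tested genes passed, 0.0247% with a positive and 0.0329% with a negative difference. Its change was smaller in size in YAP1 KO than in YKTH livers by 2.68 on the log2 scale (SE 0.26, adjusted p = 0.0032, limma), beside the 2.71 by which its WT groups differed and levels near 0 in both knockout groups, and with a pseudocount of 0.1 it did not pass (2.60, adjusted p = 0.499, limma). The changes of *Sult1e1* differed by -1.70 (SE 0.87, adjusted p = 0.999, limma), with the wide spread of the YKTH mice. The WT groups did not overlap in deposited TPM for 11.6% of all tested genes, 8.31% higher and 3.31% lower in WT (mixed) livers. They did not overlap for *Ugt1a10* and *Ugt2b37*, with lower levels in WT (mixed) livers (log2 change -1.58, adjusted p = 0.0747, or -1.31, adjusted p = 0.044, without WT mouse LM75, for *Ugt1a10* and -1.63, adjusted p = 0.454, for *Ugt2b37*, limma), and so it was for *Sult5a1* (-1.17, adjusted p = 0.604, limma). *Ugt1a6b* (0.22, adjusted p = 0.849, limma) and *Ugt2a3* (0.14, adjusted p = 0.956, limma) did not overlap either, with higher levels in WT (mixed) livers.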

How the data were processed

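Whole-liver RNA-seq of 12 female mice was analysed from the deposited gene tables. The authors mapped paired-end reads to GRCm38 in CLC Genomics Workbench 20.0.3 and deposited TPM per gene and library, with each library summing to 1000000 TPM, so read depth is unknown and no counting interval is given. The submitters' processing notes also name edgeR, which was not used here because no counts were used. Columns of fold changes, p-values and group means from the authors' own comparisons were not used.

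TPM was divided by a trimmed-mean factor (trimming 30% by log ratio and 5% by mean level), and log2 was taken after adding 1. The 12159 genes that reached 1 TPM in 3 or more of the 12 libraries were fitted with limma 3.58.1 in R 4.3.3 (trended empirical Bayes, two-sided, Benjamini-Hochberg over all genes tested, threshold 0.05), each model against its littermates. The scripts were tested on simulated data. Nothing in the labels places the 3 mice of a group in separate litters, so p-values measure the spread between these mice. Transcripts were compared with blastn 2.17.0. Start and end were the same in the GENCODE M21 annotation for 42 of 42 genes, and sequences came from GRCm38 and the RefSeq promoter table.

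The genes followed and all lists were chosen with earlier results of these data known. Every tested gene of the 30 was named. From each pathway list at most 4 genes were named, those past the threshold in both models with the largest mean change. *Blvra*, *Mup20*, *Cyp2d9* and the rest of the deconjugation list were added after their values were seen. Alternatives were the pseudocount, the filter, the scaling, the variance model, the libraries fitted, the threshold and leaving out each mouse. Genes sharing no sequence, and subfamily sums without each mouse, were added after the data were seen. The sequence of 1 shared exon is not reported here.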

Additional observations from a re-analysis of the deposited data

Results flagged for a closer look

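*Sult2a7* stood out because its change differed between the models by the test of the difference itself. The log2 change in YAP1 KO livers minus that in YKTH livers was 2.68 (SE 0.26, adjusted p = 0.0032, limma over 12 livers). All 3 mice of both WT groups were above all 3 of their knockout group. With each mouse left out in turn the difference was 2.51 to 2.95, past the threshold each time, and with a pseudocount of 0.1 it was 2.60 and did not pass (adjusted p = 0.499, limma). Groups of 3 were not screened for single outlying mice.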

How the results depend on the processing

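For each model against its littermates, the counts over the 30 genes stayed within 1.5 times under every alternative fit run. They were 22 to 26 (YAP1 KO) and 18 to 24 (YKTH) with 1 mouse left out. Restricted to genes sharing no sequence, which are fewer, 10 passed in each model. At an adjusted p under 0.01, 2507 and 2589 of all genes passed, 2 for the difference between the models and 11 between WT groups. For the difference, 3 of all genes passed with a pseudocount of 0.1, 2 without a filter and 3 to 20 with 1 mouse left out, and 0 of the 30 with a pseudocount of 0.1. Between WT groups 12 to 23 of all genes and 1 to 2 of the 30 passed with 1 mouse left out. Ratios of scaled sums were lower than those of deposited TPM: in YAP1 KO livers 0.494 for Ugt1a, 0.611 for Ugt2b, 0.235 for Ugt3a, 0.517 for all Ugt and 0.277 for all Sult, and in YKTH livers 0.494 for Ugt1a, 0.511 for Ugt2b, 0.471 for all Ugt and 0.329 for all Sult. The YAP1 KO Sult2a ratio was 0.0250 to 0.0483 with 1 mouse left out. Changes that turned direction had not passed. Without scaling and with quantile normalization these were 0.14 and 0.11 for *Ugt2b34* in YAP1 KO livers and, in YKTH livers, 0.018 and 0.10 for *Sult1a1*, 0.31 and 0.20 for *Ugt1a6a*, 0.23 and 0.23 for *Ugt1a9* and 0.13 and 0.027 for *Ugt2b35*. *Ugt1a6a* was also at 0.00218 with all 12 libraries in 1 fit, and with 1 mouse left out *Ugt1a6a* was at -0.065 to 0.056 and *Ugt1a9* at -0.33 to 0.069. The cause of these shifts was not tested. No analysis paired by litter was possible because the labels do not give the litter of each mouse.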
